A study of Coryphaena hippurus with 32 samples.

Results

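INSIG2, NPC1, ABCA1 and CYP7A1 are 4 genes that sense, move and dispose of cholesterol, and their messenger RNA was followed in whole mahi-mahi embryos and larvae exposed to oil. They were taken by gene symbol from the 10998 features that had a count, and all 4 had a table line. INSIG2, NPC1 and ABCA1 were tested at every stage, whereas CYP7A1 passed the filter on low counts at 48 and 96 h post fertilization (hpf) and not at 24 hpf. Mahi-mahi (Coryphaena hippurus) is a fast-growing ocean fish. Embryos from natural spawns of captive wild-caught broodstock were placed, shortly after fertilization, in clean seawater (control, 0 g/l) or in seawater with a mixture of dispersed Deepwater Horizon oil labelled 1 g/l. The oil was slick oil, collected from the sea surface, or source oil (labelled "Mass" in part of the series), and RNA was taken at 24, 48 and 96 hpf. The exposure was static at 27 °C, each replicate pooled 30 animals, and no strain or allele is named. The 9 groups came to 3 libraries each after 5 pairs of control samples that could not be told apart from sampling noise (lowest chi-square p = 0.021 over the 5 pairs, above the threshold of 0.001) were each counted as 1 sample (27 libraries from 32 samples). The same label value was given to both oils, and measured hydrocarbon levels were not used here, so type of oil and dose in the water cannot be told apart where slick is set against source. The labels do not tie replicates to different spawns, and p-values therefore cover only the spread between these samples, which may be technical.

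Vertebrate cells hold their cholesterol steady by a feedback loop in the membrane of the endoplasmic reticulum. When sterol is plentiful, the INSIG proteins hold the SCAP escort protein and its cargo, the SREBP transcription factors, in that membrane, and also promote the breakdown of HMG-CoA reductase; when sterol is short, SREBP is released and turns on genes of cholesterol synthesis and uptake. NPC1 lies in the lysosome membrane and passes on the cholesterol freed from lipoproteins taken up by the cell. ABCA1 pumps cholesterol and phospholipid out of the cell onto apolipoprotein, the start of high-density lipoprotein. CYP7A1 is the liver enzyme that opens the classical route from cholesterol to bile acids and sets its rate. In fish embryos the first lipid comes from the yolk, and feeding starts only when the yolk is nearly used.

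Levels are in CPM, the count of a gene relative to the scaled library total (TMM scaling, which adjusts libraries for their composition), given as mean ± SD with n = 3. They are not divided by gene length, so they are compared between groups for 1 gene and not between genes. Changes come from edgeR's quasi-likelihood test, fitted across all genes within a stage, and "called" means a Benjamini-Hochberg adjusted p below 0.05 over all genes tested. A deposited sample held 1823727 to 2560303 counts over the lines used, and a summed pair of control samples up to 4470040. In whole animals, fewer cells of a type and less RNA per cell cannot be told apart. The table is keyed to human gene identifiers, so a symbol stands for the human gene to which mahi-mahi sequence was tied.

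**Figure D1:**
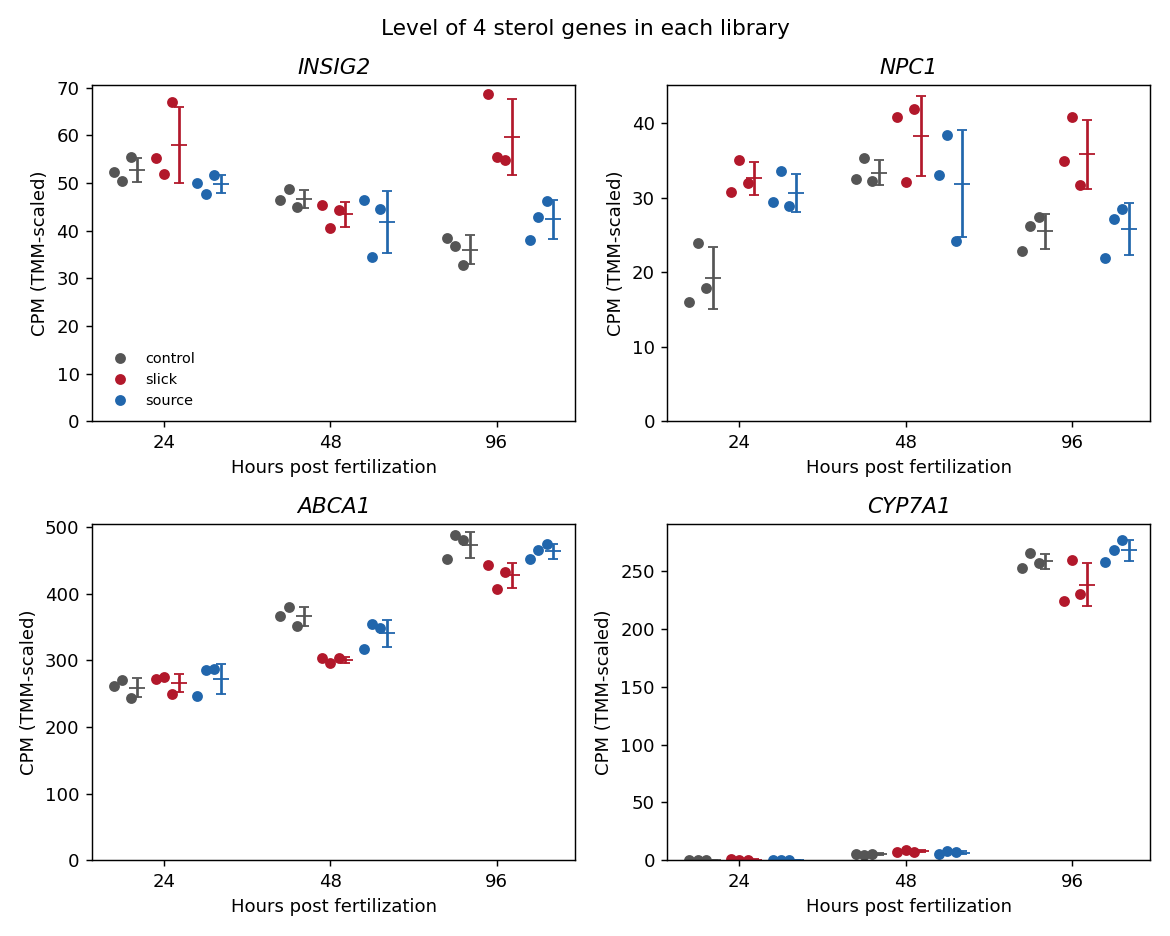
Level of INSIG2, NPC1, ABCA1 and CYP7A1 (vertical axes, CPM after TMM scaling, each panel with its own scale) in each of the 27 libraries by stage (horizontal axes, hours post fertilization). Points are libraries and the bars beside them are the mean ± SD of 3 libraries; slick libraries lie above the others for INSIG2 at 96 hpf, controls lie lowest for NPC1 at 24 hpf, and CYP7A1 is near 0 until 96 hpf.

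INSIG2, the endoplasmic reticulum anchor of the loop, was raised in slick-exposed larvae at 96 hpf, by 1.68-fold against control, and no change of it was called at the earlier stages or in source oil. At 96 hpf the slick libraries held 68.8, 55.5 and 54.8 CPM. The control libraries held 38.6, 36.8 and 32.7 CPM, and the source libraries 38.1, 42.9 and 46.3 CPM. Every slick library was above every control and source library, and control and source overlapped. The log2 change from control was 0.75 ± 0.11 (SE; adjusted p = 2e-08; edgeR quasi-likelihood test), with a 95% interval from 1.44-fold to 1.96-fold. Against source the difference was 1.43-fold (log2 0.51 ± 0.12, adjusted p = 0.00071). Source larvae were at 42.4 ± 4.10 CPM and control larvae at 36.0 ± 3.01 CPM, a difference that was not called (1.18-fold, 95% interval 0.998 to 1.39, adjusted p = 0.54).

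At 24 hpf the INSIG2 level was 52.8 ± 2.60 CPM in control, 58.0 ± 7.96 CPM in slick and 49.8 ± 1.96 CPM in source embryos. At 48 hpf it was 46.7 ± 1.94, 43.5 ± 2.57 and 41.8 ± 6.47 CPM in the same order. Slick and control libraries overlapped at both stages, and neither oil passed the test (adjusted p from 0.64 to 0.88). The intervals of the slick change ran from 0.927-fold to 1.29-fold at 24 hpf and from 0.803-fold to 1.09-fold at 48 hpf. The slick effect at 96 hpf exceeded that at 48 hpf by 0.80 ± 0.16 on the log2 scale (adjusted p = 5.9e-05, interaction in the fit of all 27 libraries), and that at 24 hpf by 0.58 ± 0.16 (adjusted p = 0.013). The second of these calls was lost when 1 library was left out, namely control replicate 3 at 24 hpf, slick replicate 2 at 24 hpf or slick replicate 7 at 96 hpf (adjusted p = 0.05, 0.059 and 0.09). Interactions were called in 11.6% and 7.46% of the genes tested for these 2 contrasts. The source effect on INSIG2 did not pass the test of a difference between stages (adjusted p from 0.37 to 0.97).

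In controls INSIG2 declined with age. The fall from 48 to 96 hpf was called (0.79-fold, log2 -0.34 ± 0.10, adjusted p = 0.0028), and the step from 24 to 48 hpf was not (log2 -0.19 ± 0.11, adjusted p = 0.15). In the order of group means, slick at 96 hpf stood first (59.7 ± 7.90 CPM) and control at 96 hpf last, and each group's range overlapped that of its neighbour in this order.

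NPC1, the lysosomal cholesterol exporter, was raised by both oils at 24 hpf and by slick oil at 96 hpf. At 24 hpf the control libraries held 15.9, 23.9 and 17.8 CPM. The slick libraries held 30.7, 35.0 and 31.97 CPM and the source libraries 29.5, 33.6 and 28.9 CPM. All 6 oil libraries were above all 3 control libraries, and the oils overlapped. The slick change was 1.69-fold (log2 0.75 ± 0.17, 95% interval 1.33 to 2.14, adjusted p = 0.013) and the source change 1.59-fold (log2 0.67 ± 0.18, 95% interval 1.25 to 2.02, adjusted p = 0.02). Both contrasts use the same 3 control libraries, so they are not independent of each other. The slick call was lost without control replicate 1 or 3 or slick replicate 2 (adjusted p = 0.15, 0.093 and 0.097), and the source call without control replicate 1 or 3 or source replicate 11 (adjusted p = 0.12, 0.13 and 0.13), while the log2 change stayed between 0.56 and 0.94 over all fits that left out 1 library. These values rest on 109 control, 198 slick and 195 source counts in all.

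At 48 hpf NPC1 was at 33.4 ± 1.71 CPM in control, 38.3 ± 5.39 CPM in slick and 31.9 ± 7.23 CPM in source embryos, with overlapping libraries and no call (adjusted p = 0.52 and 0.92). At 96 hpf the slick libraries held 34.9, 40.8 and 31.7 CPM. The control libraries then held 22.9, 26.3 and 27.3 CPM and the source libraries 21.9, 27.1 and 28.4 CPM. Slick lay above both other groups without overlap, and source and control overlapped. The slick change was 1.46-fold from control (log2 0.55 ± 0.14, 95% interval 1.21 to 1.77, adjusted p = 0.0012) and 1.40-fold from source (log2 0.49 ± 0.15, adjusted p = 0.017). The call against control held in all 6 fits that left out 1 library, whereas that against source was lost without slick replicate 8 or source replicate 16 (adjusted p = 0.15 and 0.13).

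The difference of the oil effect on NPC1 between stages did not pass the test. The source effect was lower at 48 than at 24 hpf by 0.72 ± 0.22 on the log2 scale (adjusted p = 0.22) and lower at 96 than at 24 hpf by 0.62 ± 0.23 (adjusted p = 0.29). For slick the same differences were -0.55 ± 0.22 (adjusted p = 0.38) and -0.25 ± 0.22 (adjusted p = 0.62). Control NPC1 rose from 24 to 48 hpf by 1.71-fold (log2 0.78 ± 0.16, adjusted p = 1.6e-05) and fell from 48 to 96 hpf by 0.39 ± 0.12 on the log2 scale (adjusted p = 0.0037). The 24 hpf control group, at 19.2 ± 4.15 CPM, was the lowest of the 9 groups. Slick at 48 hpf was the highest, and the first 6 groups in the order overlapped each with its neighbour, from 38.3 down to 30.6 CPM.

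**Figure D2:**
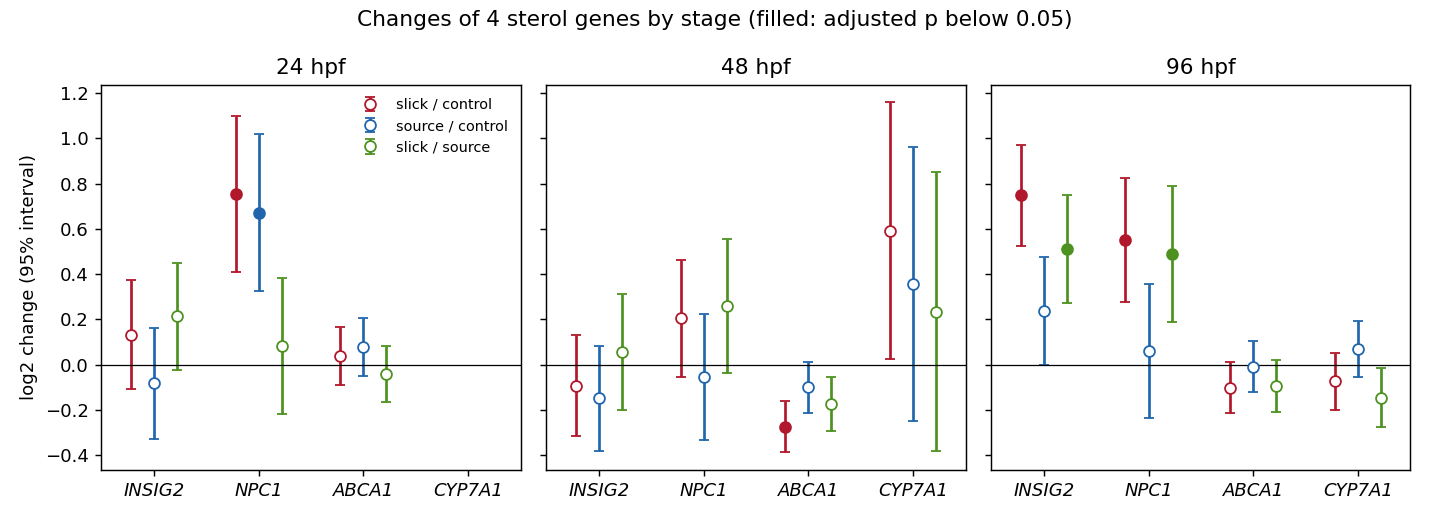
Log2 change of each gene in slick against control, source against control and slick against source (vertical axis, edgeR estimate with its 95% interval), in 1 panel per stage. Filled points passed the test at an adjusted p below 0.05: NPC1 in both oils at 24 hpf, ABCA1 in slick at 48 hpf, INSIG2 and NPC1 in slick at 96 hpf against control and against source; CYP7A1 was not tested at 24 hpf.

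ABCA1, the exporter that loads apolipoprotein, was lower in slick-exposed embryos at 48 hpf. The control libraries held 366, 380 and 352 CPM and the slick libraries 304, 296 and 303 CPM, with no overlap. The source libraries, at 318, 354 and 349 CPM, overlapped the controls and lay above slick. The slick change was 0.827-fold (log2 -0.27 ± 0.06, 95% interval 0.765 to 0.894, adjusted p = 0.00095), and it passed the test in all 6 fits that left out 1 library. Source (log2 -0.10 ± 0.06, adjusted p = 0.47) and slick against source (log2 -0.17 ± 0.06, adjusted p = 0.2) were not called.

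At 24 hpf ABCA1 stood at 259 ± 14.1, 265 ± 13.7 and 272 ± 22.5 CPM in control, slick and source embryos, and the ranges of the 3 groups overlapped. At 96 hpf the means were 473 ± 19.3, 427 ± 18.6 and 464 ± 11.3 CPM. The slick libraries at 96 hpf, from 407 to 443 CPM, were all below the lowest control of 451 CPM, but the change was not called (log2 -0.10 ± 0.06, adjusted p = 0.21). This narrow gap holds on the CPM scale and was not examined on the scale of the test. The slick effect at 48 hpf was below that at 24 hpf by 0.31 ± 0.09 on the log2 scale, which missed the threshold (adjusted p = 0.073). ABCA1 rose through development in controls, 1.40-fold from 24 to 48 hpf (adjusted p = 2.4e-11) and 1.30-fold from 48 to 96 hpf (adjusted p = 5.8e-10). Its group means fell into 3 tiers by stage, and no library of a later stage overlapped one of an earlier stage.

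The ABCA1 values above come from 1 of 17 table lines that carry the ABCA1 identifier, the line with the highest total. Of the others, 1 had no count and several were copies, which left 8 distinct lines with counts. Seen after the fact, these fell into sets of 4 and 4 by their profile over the 27 libraries. Within the set of the line described above Pearson's r of log2 CPM was 0.978 to 1.0, and between the sets it was 0.256 to 0.485; lines of a set may share reads, and all share the libraries. Within the other set r was 0.754 to 0.999, the low values belonging to its line with the fewest counts. Zebrafish carry a pair of ABCA1 genes (abca1a and abca1b), but the table does not say which mahi-mahi sequence a line stands for. CYP7A1 had 2 lines, and INSIG2 and NPC1 had 1 each.

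At 96 hpf the control libraries of the top line of the other ABCA1 set held 328, 361 and 340 CPM and its slick libraries 259, 238 and 246 CPM. Its source libraries held 334, 352 and 352 CPM, so that slick lay well below both groups and source overlapped control. In a fit with each distinct line as its own feature, the slick change of this line was 0.755-fold (log2 -0.41 ± 0.06, adjusted p = 7.6e-08; edgeR quasi-likelihood test). Against source it was 0.732-fold (log2 -0.45 ± 0.06, adjusted p = 1.7e-08). Of the other lines of this set, 2 were at -0.40 each (adjusted p = 1e-07 and 1.5e-07), and the line with the fewest counts was not called (-0.19 ± 0.10, adjusted p = 0.2; against source -0.02 ± 0.12, adjusted p = 0.93). The line first described changed by -0.08 ± 0.06 in the same fit (adjusted p = 0.36). In that fit 9.72% of lines were called lower in slick than in control and 6.13% lower than in source. At 48 hpf the second line was lower in slick by 0.25 ± 0.06 on the log2 scale (211 ± 10.3 against 251 ± 6.01 CPM, adjusted p = 0.0056), a call lost without slick replicate 6 (adjusted p = 0.076), where 2.09% of lines were called lower. At 24 hpf no oil changed it by a called amount (288 ± 7.39, 290 ± 24.0 and 303 ± 25.5 CPM in control, slick and source).

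The slick effect on the second line at 96 hpf lay below that at 24 hpf by 0.44 ± 0.09 (log2, adjusted p = 0.00018), and its difference from 48 hpf was not called (-0.20 ± 0.09, adjusted p = 0.13). Its share of the sum of the pair of top lines was 42.0 ± 0.559% in control, 36.7 ± 0.419% in slick and 42.7 ± 0.292% in source larvae at 96 hpf. All 3 slick shares were below all control and source shares. The exact two-sided permutation p was 0.1 against each, the smallest that 3 against 3 libraries allow. The second line was picked by its profile over these same libraries, so this p adds no support. From 24 to 48 hpf the second line fell in controls (log2 -0.31 ± 0.06, adjusted p = 9.1e-06) while the first rose (0.39 ± 0.06, adjusted p = 3.8e-08), and from 48 to 96 hpf both rose, by 0.39 ± 0.06 and 0.30 ± 0.05.

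**Figure D3:**
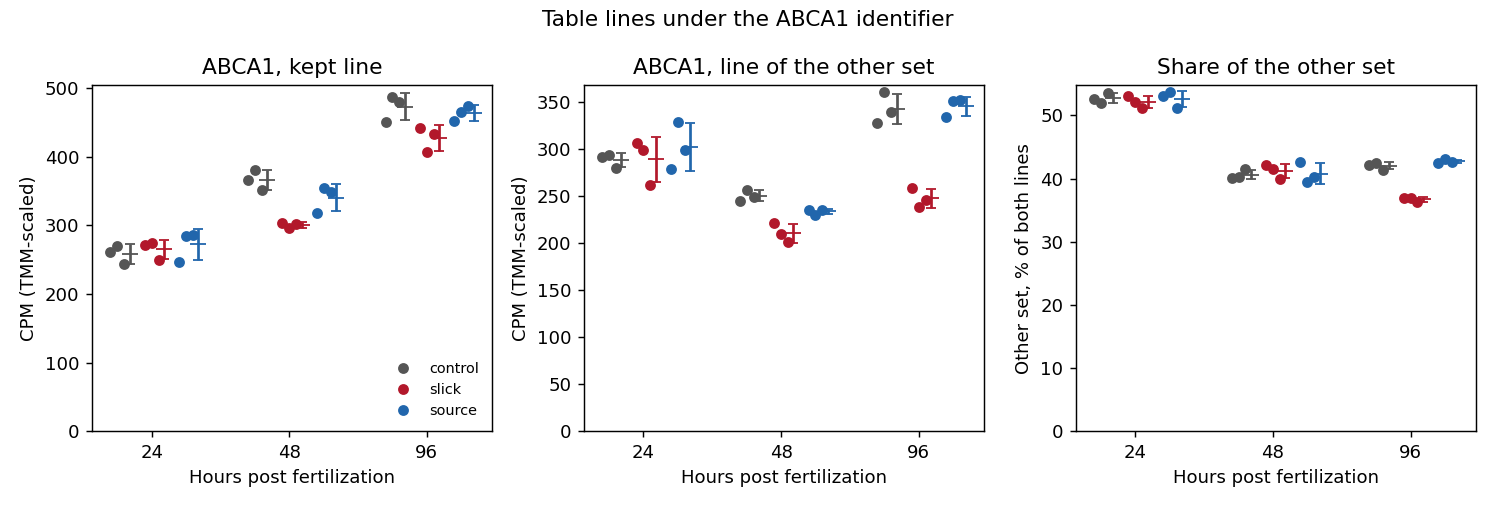
Level of the top line of each ABCA1 set in each library (left and middle, CPM after TMM scaling) and the second line's percentage of the sum of both (right), by hours post fertilization. Points are libraries and bars the mean ± SD of 3; at 96 hpf the slick libraries of the second line sit between 238 and 259 CPM, below the controls at 328 to 361 CPM, and the share is 36.7% in slick against 42.0% in control.

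CYP7A1, the gateway to bile acids, rose steeply between 48 and 96 hpf in controls, and no oil effect on it was called. Of its 6 tested oil comparisons 2 had an unadjusted p below 0.05, slick against control at 48 hpf and slick against source at 96 hpf (edgeR quasi-likelihood test). At 24 hpf the control libraries held 0 counts, the slick libraries 3 counts in all and the source libraries 2. At 48 hpf the level was 5.19 ± 0.696 CPM in control, 7.77 ± 0.995 CPM in slick and 6.66 ± 1.53 CPM in source embryos. At 96 hpf it was 259 ± 6.52, 239 ± 18.8 and 268 ± 9.30 CPM. With control at 24 hpf set to the limit that a count of 0 allows (3 counts per library, 1.59 CPM), the control level was at least 3.26-fold higher at 48 hpf and at least 163-fold higher at 96 hpf. The ratio of control means from 48 to 96 hpf was 49.8, and this step was called (adjusted p = 5.7e-68, fit of all libraries). The step from 24 hpf is given as a bound without a test, since CYP7A1 had 0 control counts there and entered the fit only through later stages.

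The slick libraries at 48 hpf held 7.16, 8.91 and 7.23 CPM, above the controls at 5.60, 4.39 and 5.58 CPM. The difference did not pass the test over all genes (1.51-fold, 95% interval 1.02 to 2.23, adjusted p = 0.33) and rests on 52 slick and 61 control counts. At 96 hpf the slick libraries held 225, 260 and 231 CPM against 253, 266 and 257 CPM in control, and they overlapped. The slick change then was 0.95-fold (95% interval 0.871 to 1.04, adjusted p = 0.45), and that against source 0.904-fold (95% interval 0.826 to 0.99, adjusted p = 0.14). The latter passed the test without slick replicate 8, the highest of its group (log2 -0.21, adjusted p = 0.042). The slick effect on CYP7A1 at 96 against 48 hpf was -0.70 ± 0.28 on the log2 scale. It was not called (edgeR interaction, adjusted p = 0.087). The second CYP7A1 line stood at 59.2 ± 2.40, 57.0 ± 5.04 and 65.7 ± 4.38 CPM in control, slick and source larvae at 96 hpf, with no call.

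The 4 genes were chosen with earlier results of these data known, so the shares of all genes given here are background and not a test. Counted over the 4 genes, 1 of 3 tested was called in slick and 1 of 3 in source at 24 hpf, where 0.58% and 1.69% of all genes were called, and 0 of 3 for slick against source (0.219%). At 48 hpf 1 of 4 was called in slick (3.3% of all genes), 0 of 4 in source (1.32%) and 0 of 4 between the oils (0.744%). At 96 hpf 2 of 4 were called in slick, where 21.2% of all genes were, 0 of 4 in source (1.1%) and the same 2 genes, INSIG2 and NPC1, between the oils (13.5%). CYP7A1 did not pass the filter at 24 hpf and is left out of the interactions with that stage. For the slick effect at 48 against 24 hpf 0 of 3 genes were called (0.674% of all genes). INSIG2 was called in the other slick contrasts, 1 of 3 genes at 96 against 24 hpf and 1 of 4 at 96 against 48 hpf. The shares for these contrasts stand above. For the source effect 0 of 3 were called at 48 against 24 hpf (0.146%), 0 of 4 at 96 against 48 hpf (0.652%) and 0 of 3 at 96 against 24 hpf (0.562%). Of these 4 contrasts without a call, the first had 2 genes with an unadjusted p below 0.05 (NPC1 and ABCA1) and the source contrasts 1 each (NPC1, INSIG2 and NPC1). DESeq2 called 0 of the 3 genes in the first, and in the source contrasts it gave no adjusted p to the genes just named. In control development 2 of the 3 genes that passed the filter at 24 hpf were called from 24 to 48 hpf, beside 47.9% of all genes, and 4 of 4 from 48 to 96 hpf, beside 62.3%. For the comparisons without a call, the number of the 4 genes with an unadjusted p below 0.05 was 0 in slick against source at 24 hpf, 0 in source at 48 hpf, 1 (ABCA1) in slick against source at 48 hpf and 0 in source at 96 hpf. DESeq2 called 0 in each, but it gave an adjusted p to only 1 of the 4 genes in source at 48 hpf, 2 in slick against source at 48 hpf and 3 in source at 96 hpf. On the CPM scale slick and control did not overlap for NPC1 at 24 hpf, ABCA1 and CYP7A1 at 48 hpf, and INSIG2, NPC1 and ABCA1 at 96 hpf. On the same scale this was so for 12.7%, 18.9% and 34.1% of all tested genes at these stages.

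The authors' deposited tables of each oil against control gave INSIG2 a log2 change of 0.45 (adjusted p = 0.018) and NPC1 one of 0.49 (adjusted p = 0.016) in slick at 96 hpf. For ABCA1 the authors' deposited table lists -0.26 at 48 hpf (adjusted p = 0.00015) and -0.20 at 96 hpf (adjusted p = 0.0038) in slick. The ABCA1 mean in the authors' deposited table was 1.33 to 1.69 times that of the line with the highest total, so its change is not that of this line. INSIG2's mean there was 0.769 to 0.936 times that of its 1 line. The ratio was 0.769 in slick at 96 hpf, where edgeR gave a log2 change of 0.75. The deposited INSIG2 change is therefore not that of this line either. NPC1's and CYP7A1's means matched (ratios 0.999 to 1.00), and edgeR gave NPC1 0.55 in slick at 96 hpf. NPC1 at 24 hpf has a log2 change of 0.31 in each oil in the authors' deposited tables and no adjusted p. The edgeR changes there were 0.75 and 0.67, although the NPC1 means matched. How the deposited changes were computed is not stated, so their sizes cannot be set against those of edgeR.

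Of 14 other measured genes of the sterol-sensing loop, 3 rose and 0 fell in slick against control at 96 hpf, where 10.9% of all genes were higher and 10.4% lower, and the list's median log2 change was 0.19, against 0.01 over all genes. INSIG1, the sister of INSIG2 and itself a target of SREBP in mammals, was 3.17-fold higher (95.6 ± 9.78 against 31.6 ± 3.46 CPM, log2 1.67 ± 0.10, adjusted p = 1.1e-30). SREBF1 and SREBF2, which encode the SREBP factors, were 1.85-fold and 1.44-fold higher (adjusted p = 5.3e-12 and 8.2e-09). SCAP, the escort, had a log2 change of 0.25 that was not called (adjusted p = 0.075). Against source, INSIG1, SREBF1 and SREBF2 were again the 3 called, with INSIG1 at 2.73-fold and SREBF1 at 1.99-fold. In that comparison 13.5% of all genes were called. No gene of this list was called by edgeR in an oil against control at 24 or 48 hpf or in source at 96 hpf. Over all genes 0.58% were called in slick and 1.69% in source at 24 hpf. The shares were 3.3% and 1.32% at 48 hpf in the same order, and 1.1% in source at 96 hpf. Unadjusted p-values below 0.05 numbered 3 in slick and 1 in source at 24 hpf, 0 in each at 48 hpf and 1 in source at 96 hpf. DESeq2 called 0 of 14 in slick at 48 hpf, and elsewhere gave an adjusted p to 0 of the 14 at 24 hpf in either oil, 3 in source at 48 hpf and 8 in source at 96 hpf, with 0 called. The slick effect on INSIG1 was larger at 96 than at 48 hpf by 1.64 ± 0.17 on the log2 scale (adjusted p = 5.5e-13), beside the 0.80 of INSIG2.

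The genes of cholesterol synthesis, which SREBP drives in mammals, were called higher in slick at 96 hpf in 19 of 19 tested, with a median log2 change of 1.77. Of all genes 10.9% were called higher there. MSMO1, a sterol methyl oxidase, was 4.48-fold higher (963 ± 58.5 against 221 ± 4.99 CPM). LSS, lanosterol synthase, was 3.88-fold and DHCR7, which takes the last step to cholesterol, 2.86-fold higher. Against source the same 19 were called, with MSMO1 at 3.27-fold and DHCR7 at 2.60-fold, where 13.5% of all genes were called. In source against control 2 of 19 were higher, MSMO1 at 1.37-fold and FDPS, farnesyl diphosphate synthase, at 1.41-fold (adjusted p = 9.7e-08 and 0.0093). The share of all genes called there was 1.1%. The FDPS call was lost without the control pair 10 and 11, the pair 12 and 13 or source replicate 18 (adjusted p = 0.079, 0.077 and 0.081). It was also lost with all lines of a gene summed (adjusted p = 0.1). At 48 hpf MSMO1 alone of 17 tested was called in slick (1.53-fold, adjusted p = 3.3e-06), where 3.3% of all genes were. The log2 changes of INSIG2 and NPC1 in slick at 96 hpf, 0.75 and 0.55, were smaller than those of all 19 synthesis genes, whose lowest was 0.76 (MVK); the difference was not tested.

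Among 20 tested genes of uptake and transport inside the cell, the list to which NPC1's work belongs, 5 were higher and 0 lower in slick at 96 hpf (median log2 change 0.18). Of all genes 10.9% were higher and 10.4% lower there. TMEM97, a transmembrane protein and 1 of the 5, passed the filter on low counts only through the slick libraries. Its call was therefore not independent of the filter. SOAT2 and SOAT1, which esterify cholesterol for storage, were 2.54-fold and 2.17-fold higher (73.5 ± 13.6 against 29.97 ± 0.993 CPM and 46.1 ± 4.95 against 22.0 ± 0.802 CPM, adjusted p = 2.3e-20 and 2.3e-12). SOAT2 and SOAT1 also exceeded source, by 1.87-fold and 1.67-fold. NPC1L1, the intestinal sterol importer related to NPC1, had a log2 change of 0.18 (adjusted p = 0.32), and LIPA, the lysosomal lipase upstream of NPC1, one of 0.60 (adjusted p = 0.07). At 24 hpf, where NPC1 was called in both oils, 0 of 17 genes of this list were called in slick or source by edgeR, with an unadjusted p below 0.05 for 3 in slick and 1 in source. Few genes of any kind were called at that stage, 0.58% of all genes in slick and 1.69% in source. DESeq2 gave an adjusted p to 1 of the 17 in slick and 3 in source there, and called 0. At 48 hpf edgeR called 1 of 17 in slick, where 3.3% of all genes were called. It was MYLIP, a ubiquitin ligase (0.609-fold, adjusted p = 0.0057), a call lost without the summed control pair 6 and 7 or slick replicate 6 (adjusted p = 0.097 and 0.065). The MYLIP call was also lost with DESeq2 (adjusted p = 0.084) and with all lines of a gene summed (0.074). In control development SOAT2 and SOAT1 fell from 24 to 48 hpf to 0.253-fold and 0.285-fold, while NPC1 rose. NPC1L1 rose 15.6-fold from 48 to 96 hpf, and it passed the filter on low counts only through 96 hpf libraries.

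The export and lipoprotein list around ABCA1 moved both ways in slick at 96 hpf, with 5 of 10 tested genes higher and 2 lower (median log2 change 0.39). Of all genes 10.9% were higher and 10.4% lower. LIPG, an endothelial lipase that acts on high-density lipoprotein, was 1.66-fold higher (adjusted p = 1.1e-07). ABCG5, which in mammals pairs with ABCG8 to secrete sterols into bile and gut, was 1 of the 5. It stood at 7.77 ± 1.62 CPM in slick and 2.64 ± 0.531 CPM in control. ABCG5 passed the filter on low counts only through the slick libraries, so its call was not independent of the filter and its p-value is left out. ABCA7, the close relative of ABCA1, was lower at 0.81-fold (86.8 ± 7.55 against 110 ± 7.18 CPM, adjusted p = 0.0032). LIPG and ABCA7 were also called against source, at 1.56-fold and 0.796-fold. The ABCA7 calls were lost without slick replicate 7 (adjusted p = 0.055 against control and 0.061 against source), and the first also without the control pair 12 and 13 (0.05). At 48 hpf, where ABCA1 was lower in slick, APOB, the scaffold of low-density lipoprotein, was at 0.688-fold (175 ± 14.3 against 257 ± 13.7 CPM, adjusted p = 2.1e-06). LCAT, which esterifies cholesterol on high-density lipoprotein, was at 0.784-fold in slick and 0.765-fold in source (adjusted p = 0.003 and 0.005). Those were the 2 of 9 tested genes called in slick at 48 hpf, where 3.3% of all genes were called. The LCAT call in slick was lost without slick replicate 6 (adjusted p = 0.13), and that in source without the control pair 4 and 5 or source replicate 13 or 15 (adjusted p = 0.064, 0.051 and 0.057). With all lines of a gene summed both LCAT calls were lost (adjusted p = 0.13 in slick and 0.15 in source). DESeq2 did not call LCAT in slick (adjusted p = 0.06). The slick effect on APOB was higher at 96 than at 48 hpf by 0.90 ± 0.19 and that on LCAT by 0.89 ± 0.18 on the log2 scale (adjusted p = 0.00033 and 8.6e-05). DESeq2 did not call the first of these (APOB log2 0.89, adjusted p = 0.061).

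Of 29 genes of bile acid synthesis and transport 19 had a line and 9 were tested at 96 hpf. In slick 1 was higher and 2 were lower (median log2 change -0.02), where 10.9% and 10.4% of all genes were. NR5A2, a nuclear receptor that in mammals activates CYP7A1, was 1.45-fold higher (41.1 ± 4.10 against 28.8 ± 3.53 CPM, adjusted p = 0.00069). ABCB11, the bile salt export pump of the liver cell, was at 0.747-fold (33.7 ± 3.80 against 47.4 ± 6.71 CPM, adjusted p = 0.0075). SLC10A2, which takes bile acids back up in the gut, was at 0.691-fold (adjusted p = 0.045), and against source the same transporters were at 0.61-fold and 0.526-fold. The ABCB11 call against control was lost without the control pair 10 and 11 or slick replicate 9 (adjusted p = 0.059 and 0.069), and that of SLC10A2 without the control pair 12 and 13, control replicate 14 or slick replicate 7 or 8 (adjusted p = 0.36, 0.059, 0.15 and 0.15). DESeq2 called neither against control (adjusted p = 0.063 for ABCB11 and 0.2 for SLC10A2). With all lines of a gene summed the SLC10A2 call was lost as well (adjusted p = 0.084). NR1H4, the bile acid receptor, had a log2 change of 0.04 (adjusted p = 0.91). SLC51A, a subunit of the exporter that returns bile acids to the blood, was 1.81-fold higher in source (adjusted p = 0.041), a call lost without the control pair 10 and 11, the pair 12 and 13 or source replicate 17 (adjusted p = 0.26, 0.41 and 0.62). The SLC51A call was also lost with all lines of a gene summed (adjusted p = 0.45) and with all stages in 1 fit (0.086). In controls from 48 to 96 hpf, the step of the CYP7A1 rise, AKR1D1, a bile acid synthesis reductase, rose 4.03-fold. ABCB11 went from 0.502 to 47.4 CPM over that step, the lower value being under the level of 3 counts per library (0.764 CPM), and it passed the filter on low counts only through 96 hpf libraries.

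**Figure D4:**
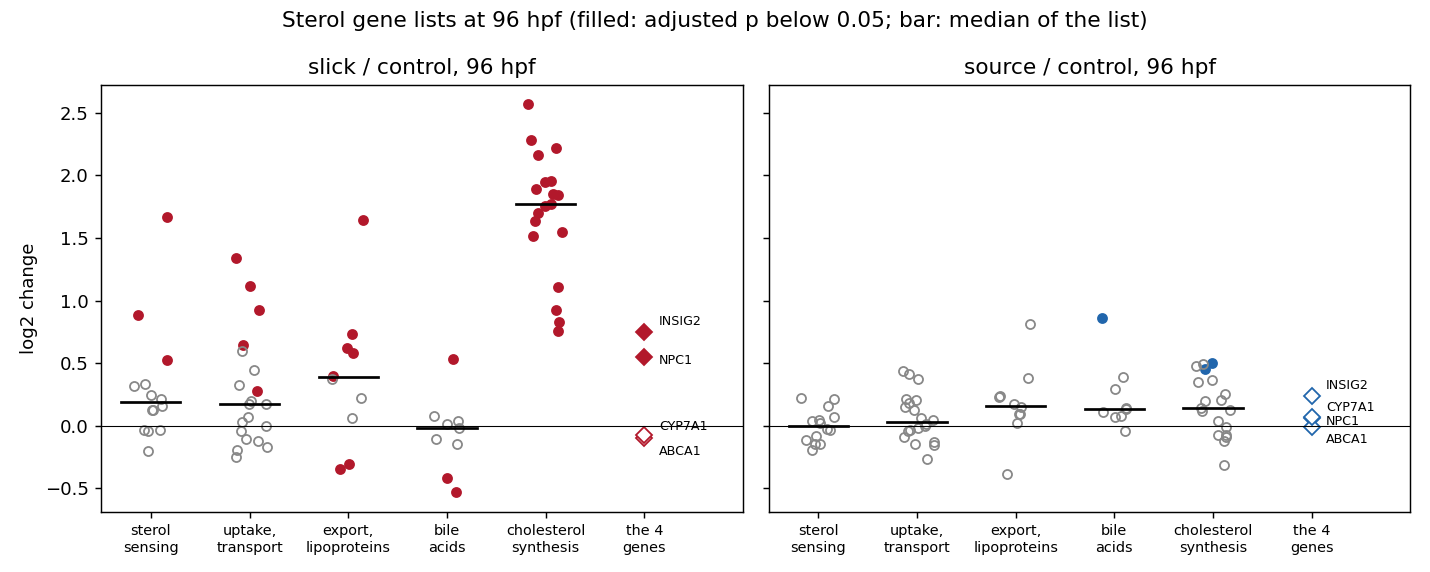
Log2 change at 96 hpf (vertical axis) of each tested gene of 5 sterol lists and of INSIG2, NPC1, ABCA1 and CYP7A1 (diamonds), in slick against control (left) and source against control (right). Filled points passed the test at an adjusted p below 0.05 and the bar is the list's median; in slick all 19 synthesis genes are filled and above 0.7, with INSIG2 at 0.75 and NPC1 at 0.55, whereas in source few points are filled.

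Markers of tissues that use these genes also differed between groups at 96 hpf. Of the 5 intestine markers with a line, 4 were tested and 4 were lower in slick, where 10.4% of all genes were. Their summed level was 187 to 192 CPM in slick, 388 to 414 CPM in control and 391 to 457 CPM in source. Of the 5 macrophage markers with a line, 4 were tested and 3 were higher in slick, where 10.9% of all genes were. At 48 hpf only 3 of these markers were tested. A marker may thus have passed the filter on low counts at 96 hpf only through the slick libraries, and its call would then not be independent of the filter. The macrophage sums were 50.9 to 69.7 CPM in slick, 33.5 to 38.4 CPM in control and 34.3 to 39.9 CPM in source. None of these markers was at 0 in a group at 96 hpf. Their part in the INSIG2, NPC1 and second-line ABCA1 changes was not tested. At 24 hpf, where NPC1 was higher in both oils, macrophage sums were 20.3 to 25.0 CPM in control, 17.3 to 21.8 CPM in slick and 17.96 to 21.5 CPM in source. At 48 hpf, where ABCA1 was lower in slick, they were 42.3 to 49.0 CPM in control and 35.7 to 47.2 CPM in slick.

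The 7 liver markers with a line, of 12 on the list, were lower as a sum at 96 than at 48 hpf. Their summed level in control was 1026 to 1081 CPM at 24 hpf, 1797 to 1974 CPM at 48 hpf and 571 to 652 CPM at 96 hpf. The sum was carried early by TF, transferrin (1551 ± 91.2 CPM at 48 hpf and 145 ± 13.5 CPM at 96 hpf in control). The fibrinogen gene FGG, in contrast, went from 18.7 ± 4.42 to 263 ± 17.7 CPM over the same step. At 96 hpf the sums were 568 to 634 CPM in slick and 716 to 781 CPM in source. Of 5 tested liver markers 2 were called higher and 1 lower in slick, where 21.2% of all genes were called. In source 3 were higher and 0 lower (1.1% of all genes called). In slick against source 1 was higher and 3 were lower (13.5% of all genes called). At 48 hpf, where ABCA1, APOB and LCAT were lower in slick, the liver sums were 1297 to 1543 CPM in slick and 1574 to 1650 CPM in source. In slick 2 of 7 were called lower, where 3.3% of all genes were called. TF made up most of the sum, at 1116 ± 112 CPM in slick against 1551 ± 91.2 CPM in control. CP was at 200 ± 24.2 against 253 ± 13.6 CPM. The fibrinogen genes FGA, FGB and FGG were at 4.53, 35.4 and 19.0 CPM in slick and 4.99, 42.0 and 18.7 CPM in control. The part of liver content in these changes was not tested.

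Over the 27 libraries the 4 genes did not share a profile, apart from ABCA1 and CYP7A1. ABCA1 stands here for its line with the highest total. Lines of the other ABCA1 set had r of only 0.256 to 0.485 with those of its set. Pearson's r of log2 CPM was 0.948 for ABCA1 with CYP7A1, both of which rise with age, and -0.442 for INSIG2 with ABCA1. It was 0.071 for INSIG2 with NPC1, 0.055 for NPC1 with ABCA1, 0.069 for NPC1 with CYP7A1 and -0.367 for INSIG2 with CYP7A1. The libraries share stages and oils, so such values describe these groups only.

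Among 7209 genes with a symbol that were tested at every stage, the profile most like that of INSIG2 was that of CXCR4, a chemokine receptor (r = 0.776). EPCAM, an epithelial adhesion protein (0.713), and SPRY1, an inhibitor of growth factor signalling (0.699), came next. CXCR4 stood at 28.2, 13.7 and 5.88 CPM in control at 24, 48 and 96 hpf and at 22.8 CPM in slick at 96 hpf. Among the genes most like NPC1 were DAPK1, a calcium-dependent kinase (0.743), and RDH10, a retinol dehydrogenase (0.69). DAPK1 was at 18.2 CPM in control, 27.3 in slick and 24.8 in source at 24 hpf. The ABCA1 line with the highest total was matched far more closely, by the collagen gene COL6A1 (0.971), the matrix enzyme LOXL1 (0.963) and the glycolytic enzyme PGAM1 (0.961). With this line 336 genes exceeded r = 0.9. CYP7A1 was matched by GAD1 (0.99), SLC17A7 (0.99) and SLC6A11 (0.989), genes of transmitter synthesis and transport in nerve tissue, and 514 genes exceeded r = 0.9. No gene exceeded 0.9 with INSIG2 or NPC1.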

How the data were processed

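Libraries were made from RNA of pooled whole animals with a TruSeq kit, per the labels' protocols. The deposited table holds whole-number read counts per table line (42538 lines keyed to human gene identifiers), not normalised. The submitters' processing notes name HTSeq, DESeq2 and hg19 (a human build), with no version or role. The step that linked mahi-mahi reads to human genes is not stated there. Per the file headers, the comparison tables deposited by the authors give each gene's log2 change and error, a mean normalised signal, a test score, and p-values before and after adjustment. They served for symbols and for the values credited to them.

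For each identifier the line with the highest total count was kept, and 332 lines that name no gene were dropped (0.043% of the counts or less in each sample). Samples of a group were compared by chi-square over genes with at least 20 counts at a threshold of 0.001. The 5 alike control pairs (chi-square per degree of freedom 0.968 to 1.03, against 1.18 to 3.03 in 41 other pairs) were summed. Genes were tested in R 4.3.3 with edgeR 4.0.16 (TMM, filterByExpr, quasi-likelihood F-test, two-sided), within a stage over 9 libraries (6 residual degrees of freedom; 7757, 8060 and 8511 genes) or over all 27 for interactions and control development (18 residual degrees of freedom; 8898 genes). The common biological coefficient of variation was 3.82% to 4.29%. The SE of an edgeR change was derived from its F statistic. Tests and intervals used the total degrees of freedom, which add to the residual ones those borrowed from other genes. Log2 CPM used a prior count of 2, except for the correlations between ABCA1 lines, where a constant was added to CPM before the log was taken. The steps were tested on simulated data. Counting floors (3 counts) and 95% intervals cover counting or model error only.

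The 4 genes, the 5 sterol lists (106 genes, 89 with a line) and the marker lists were chosen with earlier results of these data known. Named from the lists were up to 3 called genes with the lowest p in each comparison of an oil with control and up to 2 in others; genes given with values that were not called were chosen after their values were seen. Alternatives were RLE scaling, no filter, DESeq2 1.42.0, summed lines, all stages in 1 fit, every deposited sample, a replicate block and leaving out each library. The sequences of these genes were not used here. Some genes that these rules would name are not reported here.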

Additional observations from a re-analysis of the deposited data

Results flagged for a closer look

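INSIG2 differed in its slick response between stages in a test of the difference itself. Its slick effect at 96 hpf exceeded that at 48 hpf by 0.80 on the log2 scale (adjusted p = 5.9e-05, edgeR quasi-likelihood test). It exceeded that at 24 hpf by 0.58 (adjusted p = 0.013), a call lost in 3 of 12 fits that left out 1 library. These contrasts were called in 11.6% and 7.46% of the genes tested. Slick lay above control in 3 of 3 libraries at 96 hpf, where slick and control did not overlap for 34.1% of the genes tested. The second ABCA1 line also differed between stages, its slick effect at 96 hpf lying below that at 24 hpf (difference -0.44, adjusted p = 0.00018). At 96 hpf 3 of 3 slick libraries lay below every control. No other setting was run for this interaction, and its share over all lines is not given here. Groups of 3 libraries were not searched for single outlying libraries.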

How the results depend on the processing

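INSIG2 and NPC1 in slick against control at 96 hpf, INSIG2 in slick against source at 96 hpf and ABCA1 in slick against control at 48 hpf kept direction and call under every alternative run. With all lines of a gene summed, 0 of the 4 genes were called in slick and 0 in source at 24 hpf (NPC1 adjusted p = 0.17 and 0.14), and 2 in the slick effect at 96 against 24 hpf. NPC1 has 1 line, and its log2 changes at 24 hpf stayed at 0.755 in slick and 0.67 in source. All-gene calls at 24 hpf went from 45 to 6 in slick and from 131 to 44 in source with summed lines. The NPC1 call in slick against source at 96 hpf was also lost with summed lines (adjusted p = 0.062). ABCA1 summed over its lines was called in slick at 96 hpf (log2 -0.22, adjusted p = 0.005) and against source (-0.23, adjusted p = 0.0068), while its source change was 0.003 and its slick effect at 96 against 48 hpf -0.005, both with the sign turned. Lines of a set may share reads, and 2 of the summed lines held 24371 and 24370 counts. The sum may thus count the same reads more than once, which its p-values do not allow for. DESeq2 called 1 gene in slick against source at 96 hpf (NPC1 adjusted p = 0.12) and gave some of the 4 genes no adjusted p in 8 comparisons, NPC1 in both oils at 24 hpf among them, so its counts there are not set beside these. The slick effect at 48 against 24 hpf had 1 called gene, ABCA1, with no filter or with every deposited sample (adjusted p = 0.048 and 0.043). Leaving out 1 library gave 0 to 1 called genes in slick and 0 to 1 in source at 24 hpf, 1 to 2 in slick against source at 96 hpf and 0 to 1 in the slick effect at 96 against 24 hpf. The second ABCA1 line in slick at 48 hpf then ranged from -0.299 to -0.215, and at 96 hpf it was called in all such fits and with RLE scaling or no filter, alternatives chosen after seeing the data. Uncalled values whose sign turned on leaving out 1 library ranged, for ABCA1, from -0.011 to 0.077 (slick, 24 hpf), -0.106 to 0.005 (slick against source, 24 hpf) and, in source at 96 hpf, -0.04 to 0.013 over all libraries and -0.021 to 0.008 over source libraries; for INSIG2, from -0.068 to 0.14 (slick against source, 48 hpf) and -0.149 to 0.06 (source effect, 48 against 24 hpf); and for NPC1, from -0.201 to 0.102 (source, 48 hpf), -0.015 to 0.159 (source, 96 hpf) and -0.045 to 0.253 (source effect, 96 against 48 hpf). Slick and control libraries that share a replicate number had correlations of 0.029, -0.009 and 0.034 at 24 hpf. Pairs with unlike numbers ran from -0.037 to 0.009 there. At 48 hpf the values were 0.018, 0.012 and -0.015, against -0.065 to 0.047 for unlike numbers. Whether the numbers pair the samples cannot be told from these values. With a replicate block NPC1 at 24 hpf was 0.76 (adjusted p = 0.0037) and ABCA1 at 48 hpf -0.30 (adjusted p = 0.018), the calls unchanged, while all-gene calls went from 45 to 71 and from 266 to 163. All-gene calls in slick against control were 6 with summed lines at 24 hpf, 124 with DESeq2 at 48 hpf and 1038 with DESeq2 (1808 in the main analysis) at 96 hpf. In that comparison DESeq2 called 18 genes of cholesterol synthesis (19 in the main analysis), 3 of uptake (5), 4 of export (7) and 1 of bile acids (3). As separate lines, INSIG2 fell from 24 to 48 hpf in controls (-0.29, adjusted p = 0.025). The causes were not tested. At this depth the CYP7A1 values at 48 hpf rest on 61 control counts and the NPC1 values at 24 hpf on 109.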
